A study of Saccharomyces cerevisiae with 13 samples.

Results

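The first 50 codons of yeast coding sequences were examined in a ribosome footprint library made from transcripts bound by 2 ribosomes. Their members are the positions of the deposited table whose A-site lay from the first base of the start codon, numbered 0, to the first base of codon 50. There were 9713 such positions of 75954, which held 62980 of 401686 footprints, or 15.7% (95% Wilson interval 15.6 to 15.8%), in 2408 of the 4886 genes with any footprint. The series holds monosome-seq, disome-seq and mRNA-seq from cells given 3-AT, an inhibitor of histidine synthesis, and from cells in rich medium. The library described here was its negative control, prepared once from cells labelled as strain BY4742 (MATα his3Δ1 leu2Δ0 lys2Δ0 uraΔ0, the last given as ura3Δ0 in the study's methods) in YPD at 30 °C, whose transcripts with 2 ribosomes were collected, digested with RNase I and sequenced as fragments of 28 to 29 nt. The other libraries in rich medium, 2 replicates of each assay, carry the same strain and medium labels. The elongation inhibitor cycloheximide was added to the lysis buffer. With 1 library there was no replicate, so no test was made, and each interval covers counting error only. Intervals on footprints take each footprint as separate and are too narrow where amplification copies were counted.

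A ribosome starts translation with the start codon in its P-site, the site of the growing peptide, and the next codon in the A-site, where the incoming tRNA is decoded. RNase I removes the mRNA outside the ribosome, and the fragment left behind, the footprint, gives the codon that was in the A-site. During the codons that follow, the new peptide fills the exit tunnel of the large subunit, and signal peptides of secreted proteins emerge from it soon after. A site at which elongation is slow holds more footprints than its neighbours, while a region that ribosomes cross fast, or reach rarely, holds fewer.

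The genes of the genotype label were examined first, because all later values rest on this library. LYS2, which the label gives as deleted, had 62 footprints at 44 positions, 4 of them in the first 50 codons, whereas the other rich-medium libraries had none in any assay. MET17 had no footprint, against 514 and 341 reads in the 2 monosome-seq replicates. Among genes specific to a mating type, STE2, the α-factor receptor of MATa cells, had 47 footprints and STE3, the a-factor receptor of MATα cells, had 1, against 1 and 0 reads of STE2 and 448 and 358 reads of STE3 in monosome-seq. SAG1, another MATα gene, had 0 footprints, against 637 and 499 monosome-seq reads, and MFA2, a MATa gene, had 66, against 0 and 0. LEU2 and URA3 had none, although URA3 had 35 and 21 monosome-seq reads, and HIS3, of which his3Δ1 removes an internal piece, had 49, with 14 in the first 50 codons. The library labelled BY4742 thus went against its label at LYS2 and at the mating type genes, so that any comparison with the other libraries may also be one between strains. MET17 and the mating type genes were chosen after their values had been seen.

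Early footprints stood in clusters that lay at different distances from the start codon. For 12 genes a stretch that holds a main cluster is shown in the coding strand of the R64 genome, with the 3 A-site codons that held the most footprints within it in capitals. These were the 10 genes with the highest early counts, a gene with a very high early share (SMT3), and the gene that led at the second codon (POR1).
FBA1: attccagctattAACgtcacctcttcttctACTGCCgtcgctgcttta
TDH3: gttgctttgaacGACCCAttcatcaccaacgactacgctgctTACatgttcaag
TDH2: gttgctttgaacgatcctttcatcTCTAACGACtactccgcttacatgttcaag
CCW12: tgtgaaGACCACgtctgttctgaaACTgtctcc
CWP2: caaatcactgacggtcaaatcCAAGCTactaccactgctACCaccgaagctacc
YDR524C-B: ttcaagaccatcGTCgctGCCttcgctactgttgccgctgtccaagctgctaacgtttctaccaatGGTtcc
SED1: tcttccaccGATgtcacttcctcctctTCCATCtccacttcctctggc
RPL22A: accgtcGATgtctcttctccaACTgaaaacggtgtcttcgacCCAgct
NCW1: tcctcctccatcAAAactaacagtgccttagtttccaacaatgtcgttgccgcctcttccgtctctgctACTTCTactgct
STM1: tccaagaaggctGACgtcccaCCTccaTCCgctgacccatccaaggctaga
SMT3: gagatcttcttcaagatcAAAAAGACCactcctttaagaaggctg
POR1: atgTCTcctCCAGTTtacagcgatatctcc

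All 12 stretches are coding exon sequence. The FBA1 stretch is chrXI:327344-327391 on the minus strand (codons 33 to 48) and that of CWP2 is chrXI:259334-259387 on the plus strand (codons 28 to 45). TDH3 is shown at chrVII:883673-883726 and TDH2 at chrX:454544-454597, both on the minus strand and both codons 29 to 46. CCW12 is at chrXII:369949-369981 on the minus strand (codons 40 to 50) and STM1 at chrXII:440560-440610 on the plus strand (codons 32 to 48). SED1 is at chrIV:600871-600918 (codons 27 to 42) and SMT3 at chrIV:1469499-1469543 (codons 34 to 48), both on the plus strand. RPL22A is at chrXII:263628-263675 (codons 16 to 31) and NCW1 at chrXIII:511348-511428 (codons 12 to 38), both on the plus strand, and YDR524C-B at chrIV:1489721-1489792 on the minus strand (codons 3 to 26). POR1 is at chrXIV:518816-518845 on the minus strand (codons 1 to 10).

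FBA1, the aldolase of glycolysis, held the most early footprints, 4334 of its 17335, of which 92.9% fell in the stretch shown. Its 3 highest codons were codon 37 (asparagine) with 621, codon 43 (threonine) with 733 and codon 44 (alanine) with 653. In CCW12, an abundant cell wall protein made with a signal peptide, a single threonine codon, codon 48, held 1203 of 2285 early footprints (52.6%), the highest count of any position in the window. In STM1, which binds ribosomes, the leading codon was a proline, codon 39, with 238 of 853, within a run rich in proline codons. In SMT3, the yeast SUMO, lysine codon 41 with 117 and threonine codon 42 with 75 stood beside lysine codon 40 with 18, and these 3 codons held 88.2% of 238 early footprints. CWP2, a cell wall protein of 92 codons, had peaks nearer the start than these, with 199 footprints at codon 6 and 117 at codon 9, besides 353 at codon 35. CCW12 had 72 at codon 10. SED1, the main cell wall protein of stationary-phase cells, had 221, 199 and 253 at codons 30, 36 and 37. Clusters nearer the start were found in YDR524C-B, which had 123, 203, 168 and 156 footprints at codons 4, 7, 9 and 10 besides 241 at codon 25 and 230 at codon 43. The cell wall protein gene NCW1 was highest at codon 16 with 168, and RPL22A, of the large ribosomal subunit, at codon 18 with 179.

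**Figure D1:**
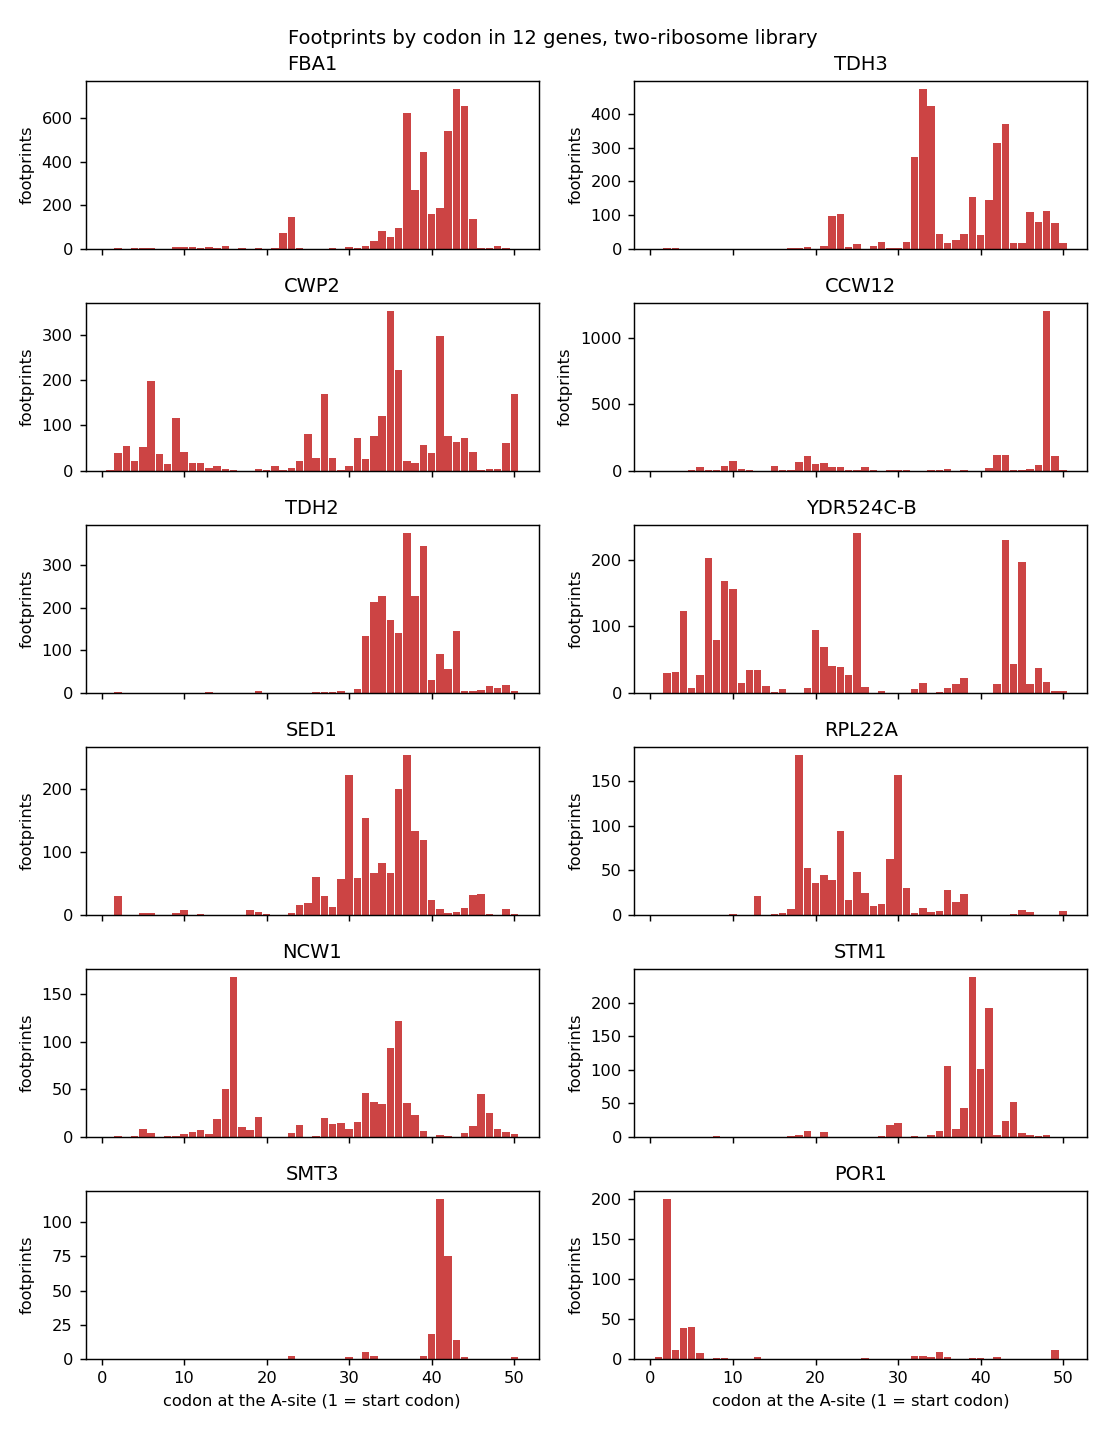
Footprints (vertical axis, counts on a scale of its own in each panel) by the codon in the A-site (horizontal axis, 1 is the start codon) in 12 genes of the two-ribosome library. Some clusters stand late in the window, such as the 1203 footprints at codon 48 of CCW12 and the 733 at codon 43 of FBA1. CWP2, YDR524C-B and POR1 have high counts near the start, with 199 at codon 6, 203 at codon 7 and 200 at codon 2. Other genes have lower counts there, such as 72 at codon 10 of CCW12.

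TDH3 and TDH2 encode the same glycolytic enzyme, glyceraldehyde-3-phosphate dehydrogenase, and TDH1 is a further copy. At codons 29 to 50 the 28-nt stretch of each position was unique in all 3 genes, so that reads there could be assigned. At codons 32, 33 and 34, which code for asparagine, aspartate and proline in each copy, TDH3 had 271, 474 and 425 footprints, TDH2 had 134, 214 and 226, and TDH1 had 12, 35 and 123. TDH3 writes the aspartate as GAC and the others as GAT. At codons 35 to 38 TDH3 had 43, 16, 27 and 44 footprints, TDH2 had 170, 140, 375 and 228, and TDH1 had 90, 48, 25 and 2. The cluster thus ended at codon 34 in TDH3, ran on to codon 39 in TDH2, and in TDH1 was highest at codon 34 with codons 35 and 36 above codons 32 and 33. Codon 37 is threonine in TDH3 and the same serine codon in TDH2 and TDH1. TDH3 rose again after this, with 153, 145 and 314 footprints at codons 39, 41 and 42, where TDH2 had 345, 90 and 56 and TDH1 had 0, 21 and 13. At codon 43, a tyrosine in each copy, the counts were 371 in TDH3, 145 in TDH2 and 34 in TDH1.

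Footprints were sparse at the start of the coding sequence and became more frequent over the next codons. Over the 4427 listed genes of at least 150 codons, codons 1 to 10 held 2297 footprints (95% Poisson interval 2204 to 2393), codons 11 to 20 held 3787, codons 21 to 30 held 7336, codons 31 to 40 held 14628 and codons 41 to 50 held 11857. Single genes weighed on these sums: TDH2 gave 12.8% of codons 31 to 40 and FBA1 19.1% of codons 41 to 50. When each of 656 genes with at least 50 footprints was scaled to its own mean per codon, the relative level of the same 5 stretches was 0.311, 0.546, 0.988, 1.12 and 1.13, where 1 is the mean of a gene. After the window the level was 1.63 at codons 61 to 70, 1.55 at codons 71 to 80 and 1.46 at codons 81 to 90. The share of these genes with a footprint was 35.8% in codons 1 to 10, 43.8% in codons 11 to 20, 55.8% in codons 41 to 50 and 64.5% in codons 61 to 70.

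The lowest part of the profile was codons 1 to 16, a limit set after the profile had been seen. The relative level averaged 0.355 there, 1.04 at codons 17 to 50 and 1.28 at codons 51 to 150. The start codon itself was in the A-site of only 72 footprints over all genes, in 18 genes, led by ENO1 with 23 and ENO2 with 15, the 2 enolase genes. With codon 2 in the A-site, the position of a ribosome that has just started, 819 footprints were listed in 170 genes, and codons 3, 4 and 5 had 418, 390 and 470. POR1, the mitochondrial porin, gave 200 of the 819, followed by CWP2 with 39. On the gene-scaled level codon 2 stood at 0.597, codon 3 at 0.244 and codon 4 at 0.221.

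**Figure D2:**
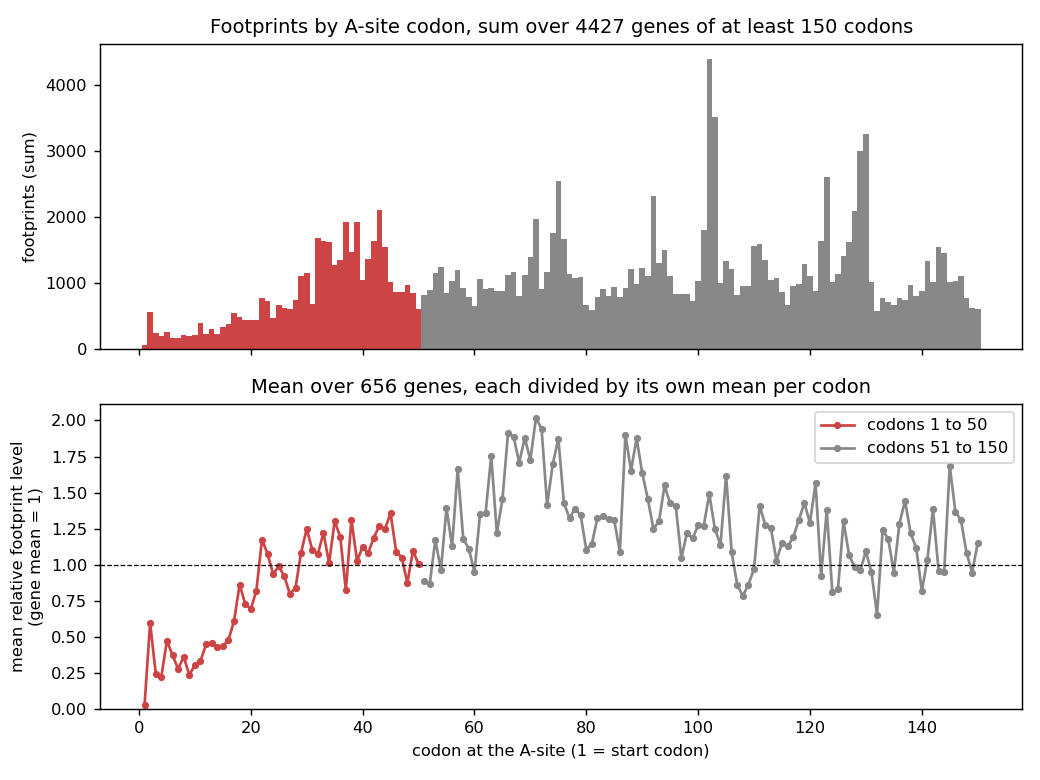
Footprints by the codon in the A-site over codons 1 to 150, as the sum over 4427 genes (upper panel, counts) and as the mean over 656 genes after division by each gene's own mean per codon (lower panel, relative level). Red marks codons 1 to 50 and grey codons 51 to 150. The relative level averages 0.355 over codons 1 to 16, 1.04 over codons 17 to 50 and 1.28 over codons 51 to 150.

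For each gene of at least 100 codons the footprints per codon of the first 50 codons were divided by those of the later codons, with the stop codon left out. Summed over 4726 genes, the density was 0.220 footprints per codon in the first 50 codons and 0.147 after them, a pooled density ratio of 1.50 (95% interval 1.49 to 1.51). This sum mixes genes of unlike length and count. The pooled ratio was 1.40 in genes of at least 200 codons and 1.74 without the 10 genes with the most footprints. Why it lay above 1 was not tested. Against an even spread of each gene's own footprints, a comparison chosen after the pooled value had been seen, the first 50 codons held 0.730 times the expected number.

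Of the 2408 genes, 697 belonged to the 755 with at least 50 footprints and 100 codons, for which a ratio of their own was read. They held 5501 of the positions and 74.5% of the early footprints. A further 35 genes under 100 codons held 632 positions and 16.1%, and 1676 genes under the minimum held 3576 positions and 9.40%. The other 4 positions, with 5 footprints, lay past the stop codon of a short gene. In the 755 genes the median density ratio was 0.458, the quartiles were 0.151 and 1.22, and 525 were below 1. A median of 7.08% of a gene's footprints lay in its first 50 codons, against 14.3% of its codons. A ratio of at least 2 was found in 100 of 755 genes (13.2%) and a ratio of at most 0.5 in 396 (52.5%). The nearest values on either side of these limits were 2.02 and 1.98, and 0.498 and 0.508. Summed over the 35 short genes, the early codons held 64.5% of footprints, and an even spread gave 64.4%. This is a sum and not a median, and CWP2 with 5061 footprints and YDR524C-B with 2792 weighed heavily on it. Single short genes differed widely, with ratios such as 0.169 in RPS27B and 41.5 in YPR170W-B.

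**Figure D3:**
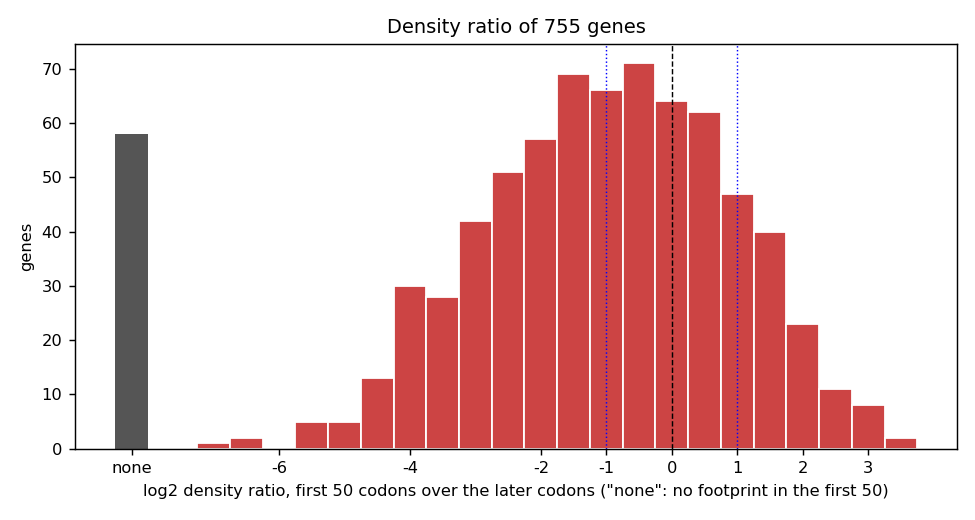
Number of genes (vertical axis) by the log2 of the density ratio of the first 50 codons over the later codons (horizontal axis) for 755 genes. The dashed line marks equal density, the dotted lines ratios of 0.5 and 2, and the grey bar the 58 genes without a footprint in the first 50 codons. The main body lies left of the dashed line, with 525 genes below a ratio of 1.

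The first 50 codons had the lowest median of the 4 windows of this length that were compared. In 567 genes of at least 200 codons, the median ratio of a window over the other codons was 0.477 for codons 1 to 50, 1.08 for codons 51 to 100, 0.822 for codons 101 to 150 and 0.714 for the last 50 codons. No footprint was found in codons 1 to 50 of 53 genes, in codons 51 to 100 of 23, in codons 101 to 150 of 26 and in the last 50 codons of 33. Ratios of at least 2 were found in 76, 165, 119 and 107 genes in the same order, so that counts in single windows were uneven all along the coding sequence. By coding length, the median early ratio was 0.407 at 100 to 199 codons, 0.305 at 200 to 299, 0.603 at 300 to 499, 0.433 at 500 to 799 and 0.548 above.

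The 10 genes with the most early footprints held 33.6% of them, and the 10 genes with the most later footprints held 33.4% of those. FBA1 was first with 25.0% of its footprints in the first 50 codons (95% Wilson interval 24.4 to 25.7%), against 13.9% of its codons. TDH3 followed with 3040 of 19047 and a density ratio of 1.07. TDH2 had 2236 of 5338, or 41.9%, against 15.1% of its codons. The other 7 were CWP2 with 2785 of 5061, CCW12 with 2285 of 20930, YDR524C-B with 2072 of 2792, SED1 with 1727 of 5214, RPL22A with 930 of 1401, NCW1 with 899 of 1027 and STM1 with 853 of 1566. A high count was not always a high share of its gene: the density ratio was 0.203 in CCW12, 1.03 in CWP2 and 0.921 in YDR524C-B, and 2.85 in SED1, 2.80 in RPL22A and 5.34 in STM1. NCW1, CWP2 and YDR524C-B have 84, 92 and 66 codons, so that the early codons are most of the gene.

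Among the 755 genes with at least 50 footprints and 100 codons, the strongest early signal relative to the rest of a gene was found mostly in genes with few footprints. RPL26A, a large subunit ribosomal protein, had 111 of 126 footprints in its first 50 codons, a ratio of 11.4 (95% interval 6.62 to 21.0). TVP15, a Golgi membrane protein, had 70 of 82 (ratio 10.9), SMT3 238 of 267 (8.37) and ATP14, a subunit of the mitochondrial ATP synthase, 44 of 52 (8.14). LYS21, a homocitrate synthase of lysine synthesis, had 51 of 100 (8.12), ALD6, the cytosolic aldehyde dehydrogenase, 51 of 112 (7.52) and EXG1, a secreted glucanase, 32 of 67 (7.28). GTT1, a glutathione transferase, had 46 of 70 (7.05), and GDB1, the glycogen debranching enzyme, 14 of 75 (6.82). SHM2, the cytosolic serine hydroxymethyltransferase, was the one heavily counted gene among these 10, with 677 of 1502 footprints and a ratio of 6.88 (95% interval 6.20 to 7.62). In LYS21 and RPL26A only 46.5% and 68.9% of the later positions had a 28-nt stretch found in no other coding sequence. Per unique position, counted from codon 6 on, their ratios were 4.25 and 9.68. Several of these ratios rested on few codons: with each position counted once the ratio was 0.801 in SMT3, below 1, 2.05 in RPL26A, 2.18 in LYS21 and 1.81 in SHM2, and from 3.01 to 4.25 in the other 6. Genes under 100 codons, left out of this ranking, reached both higher and low ratios. RPL29 had 399 of 402 footprints early (ratio 23.9) and YPR170W-B 178 of 181 (41.5), against 84.7% and 58.8% of their codons. RPS27B, also short, had 58 of 278 (0.169).

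At the other end, 58 of the 755 genes had no footprint in the first 50 codons. The 5 with the most footprints elsewhere, chosen among these ties after their values had been seen, were MET6, UBA1, CDC60, RDL1 and XRN1. MET6, the methionine synthase, had 0 of 331, which allows a share of up to 0.906% against 6.52% of its codons. This limit, like each one given for a gene without an early footprint, is 3 footprints over the gene's total. It is lower than the upper end of a 95% Wilson or Clopper-Pearson interval. UBA1, the ubiquitin-activating enzyme, had 0 of 177, which allows up to 1.69% against 4.88%. The leucyl-tRNA synthetase gene CDC60 had 0 of 152 and the cytoplasmic exonuclease gene XRN1 0 of 110, which allow up to 1.97% and 2.73%, against 4.59% and 3.27% of their codons. For XRN1 the wider intervals take in the share of its codons, so it was not below an even spread beyond counting error. RDL1, a small sulfurtransferase, had 0 of 146, which allows up to 2.05%, against 36.0% of its codons.

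Within the first 50 codons, footprints gathered at few codons of a gene. This was read in 401 of the 559 genes with at least 10 early footprints, and genes under 50 footprints in all were among those left out. In the 401 genes a median of 31.9% of the early footprints stood at 1 codon. That codon was codon 17 or later in 336 genes, a range that takes in 34 of the 50 codons. All 10 positions with the most footprints lay at codons 33 to 48. Besides codon 48 of CCW12 they were codons 37, 39, 42, 43 and 44 of FBA1, codons 33, 34 and 43 of TDH3 and codon 37 of TDH2, with 371 to 733 footprints each. The residue in the A-site was threonine in 3 of the 10 and proline in 1.

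Across genes proline was the residue most above its expectation in the A-site and the P-site. The expectation spread each gene's footprints of codons 3 to 50 evenly over the same codons. Proline in the A-site was at 2.49 times its expectation in codons 3 to 50 (95% Poisson interval 2.43 to 2.56) and at 2.68 times after codon 50 (2.65 to 2.70). In the P-site it was at 2.29 times in codons 3 to 50 (2.22 to 2.35) and at 3.04 times after codon 50 (3.01 to 3.07). Counting each position once, which takes away the weight of a few heavily counted genes, gave 1.85 (1.73 to 1.98) in the early codons and 2.01 (1.96 to 2.06) in the later codons for the A-site, and 1.82 (1.70 to 1.95) and 2.10 (2.05 to 2.16) for the P-site. The early value was thus lower than the later value at the P-site by either count, with intervals that did not overlap. These intervals take each footprint or position as independent, although footprints pile up at few codons. The difference was not tested over replicates. In the E-site proline stood at 1.44 in the early and 1.70 in the later codons with each position counted once. By footprints it stood there at 1.56 and 1.72, below serine at 2.08 and 1.77. Tryptophan, at 0.492, and glycine, at 0.525, were furthest below their expectation in the A-site of the early codons with each position counted once. By footprints these were cysteine, at 0.298, and glycine, at 0.332. Serine in the A-site stood at 1.10 in the early codons and 1.38 in the later codons. The codon with the most footprints had proline in its A-site or P-site in 101 of the 401 genes (25.2%), against 10.0% of their positions.

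**Figure D4:**
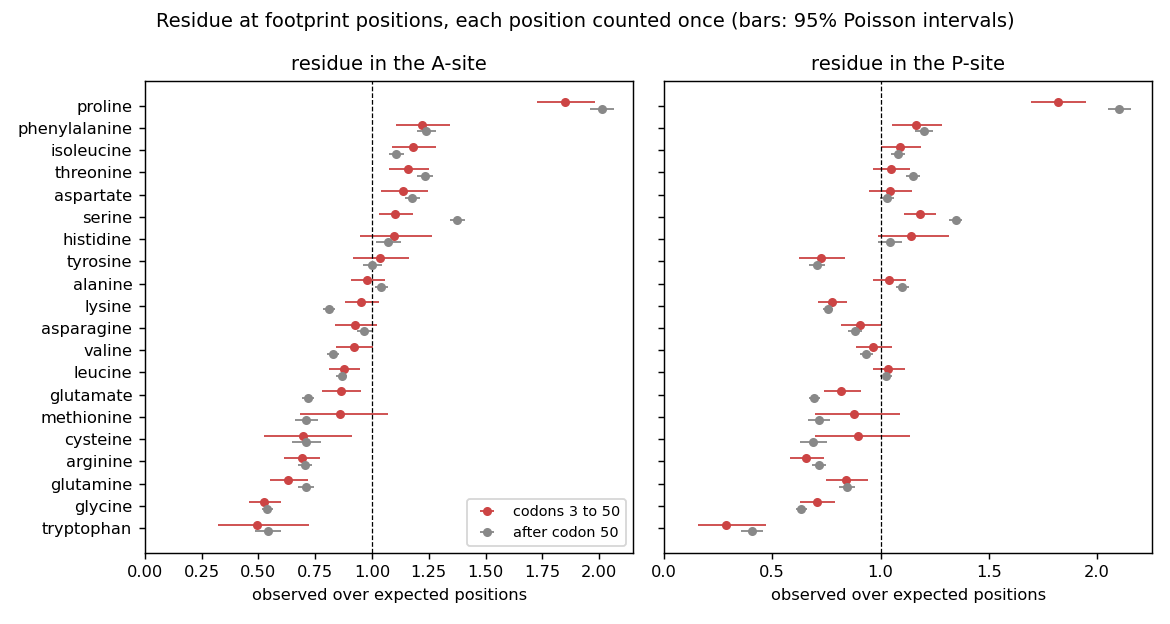
Observed over expected positions (horizontal axis, each position counted once) for each residue in the A-site (left) and P-site (right), for codons 3 to 50 (red) and after codon 50 (grey) with 95% Poisson intervals. Proline stands highest in both regions and sites, at 1.85 early and 2.01 later in the A-site.

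Each gene list is read here beside the 13.2% of all genes at a ratio of at least 2, the 52.5% at 0.5 or less and the median of 0.458. The histones, which package DNA, had the lowest median, 0.0676, with 0 of 8 at a ratio of at least 2 and 6 of 8 at 0.5 or less. In 4 of the 8 under 80% of the later positions were unique, and per unique position the median was 0.102. HTA1, an H2A gene, had 1 of 87 footprints early and HHT2, an H3 gene, 3 of 232, while the H2B genes HTB1 and HTB2 had 123 of 499 and 75 of 301, ratios of 0.530 and 0.538. Among 17 translation initiation factors the median was 0.305, with 12 at 0.5 or less, such as PRT1, a subunit of eIF3, with 0 of 63, which allows a share of up to 4.76%. The highest was TIF11, which encodes eIF1A, with 73 of 125 and a ratio of 2.89. Of 7 elongation factors 5 were at 0.5 or less. They ran up to NEW1, an ABC-type translation factor, with 14 of 73 (ratio 5.44), and down to CAM1, a subunit of eEF1B, with 3 of 228 (0.0973).

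Ribosomal protein genes lay near the whole set when all positions were used. The 42 small subunit genes had a median of 0.575, with 6 at a ratio of at least 2 and 19 at 0.5 or less, from RPS2 at 0.0571 to RPS8B at 6.47. The 65 large subunit genes had a median of 0.544, with 7 and 32, from RPL9A, with 1 of 373 footprints early, to RPL26A. Most of them are paired copies: under 80% of the later positions were unique in 17 small subunit and 37 large subunit genes, RPS8B having only 0.680% unique. Per unique position the median was 0.604 in the small subunit and 0.316 in the large subunit genes, against 0.476 in all genes. Values of single copies are therefore uncertain. RPS14A, RPL15A and RPS31 had 68 of 643, 28 of 321 and 41 of 676 footprints early, ratios of 0.206, 0.294 and 0.132, and TEF4, a subunit of eEF1B, had 17 of 1060 (0.118). CYC8, a transcriptional corepressor, had 3 of 56 (1.04).

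Cytosolic chaperones, which fold new proteins, had a median ratio of 1.47, with 4 of 15 at a ratio of at least 2 and 2 of 15 at 0.5 or less. The highest was the Hsp70 gene SSA1 with 312 of 949 (5.80), and the lowest the cyclophilin gene CPR6 with 2 of 108 (0.121). In SSA1 only 29.9% of the later positions were unique, and per unique position its ratio was 2.03 and the median of the list 1.02. These values also leave out codons 1 to 5, so the change is not one of uniqueness alone. ZUO1, with 100% of its positions unique and its highest early count at codon 5, went from 1.915 to 0.839. Glycolysis and fermentation genes had a median of 0.740, with 4 of 18 at a ratio of at least 2 and 6 at 0.5 or less. They reached from GPM1, the phosphoglycerate mutase, with 94 of 15366 footprints early, to PFK2, a subunit of phosphofructokinase, with 205 of 770 (6.60). Per unique position TDH3 had a ratio of 0.679 and TDH2 one of 2.21, where all positions gave 1.07 and 4.07.

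Among 22 genes of secreted and cell wall proteins with a signal peptide, 5 had a ratio of at least 2 and 8 one of 0.5 or less, with a median of 0.667. EXG1 was the highest and CWP1, a cell wall mannoprotein, the lowest, with 2 of 74 (0.105). Of 26 mitochondrial proteins with a presequence 4 and 10 passed these limits, with a median of 0.649. The highest was SDH2, a subunit of succinate dehydrogenase, with 37 of 79 (3.81). No early footprint was found in SDH1, another of its subunits, with 0 of 79, which allows up to 3.80%, or in KGD1, of the ketoglutarate dehydrogenase complex, with 0 of 99, which allows up to 3.03%. The 30 genes of amino acid synthesis had 5 and 14, with a median of 0.603, LYS21 being the highest, and ARG1 with 0 of 67 (up to 4.48%) and MET6 being among 3 genes without an early footprint. Only 2 of 24 membrane transporters and 1 of 8 proteins of the endoplasmic reticulum lumen passed the minimum. The proton pump gene PMA1 had 60 of 377 (3.29), the hexose transporter gene HXT4 8 of 55 (1.79), and PDI1, the disulfide isomerase of the endoplasmic reticulum, 26 of 186 (1.53).

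**Figure D5:**
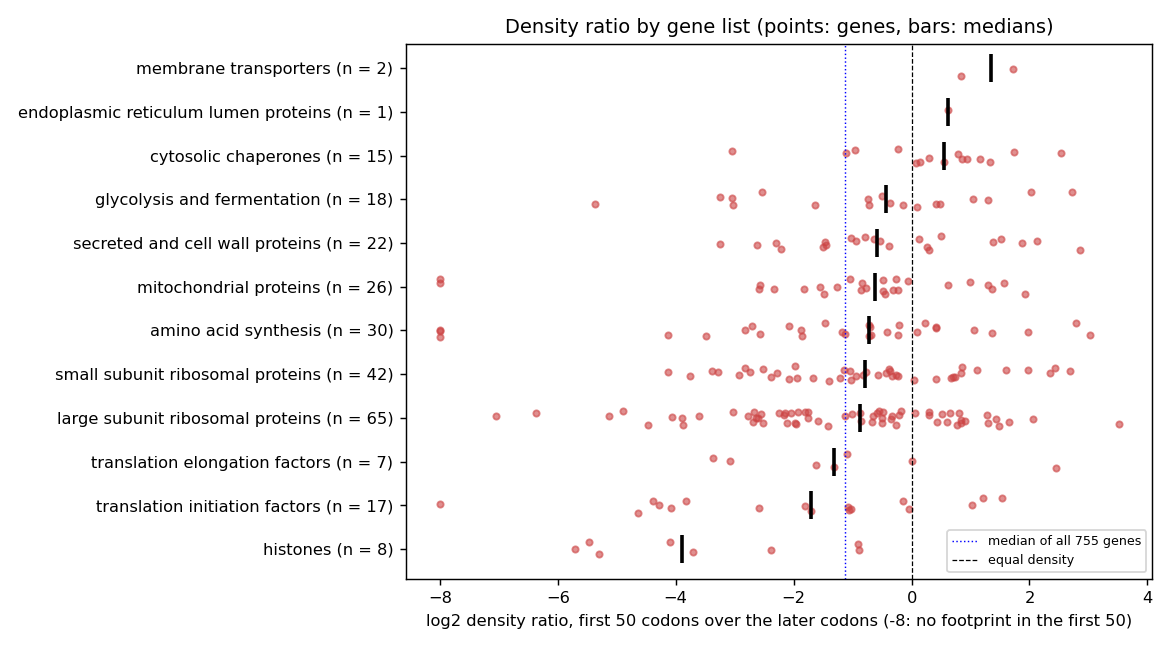
Log2 density ratio (horizontal axis) of the genes of 12 lists (rows, with the number of genes measured), 1 point a gene, with the list's median as a black bar, the median of all 755 genes as a dotted line and equal density as a dashed line. Genes without an early footprint are drawn at the left edge. The histones lie lowest, with a median ratio of 0.0676, and the 15 cytosolic chaperones have a median ratio of 1.47, or 1.02 per unique position from codon 6 on.

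The ratio had little relation to other measures of a gene. Across 753 genes its Spearman rho was 0.10 with translation efficiency, taken as monosome-seq over mRNA-seq reads in the rich medium, and across 755 genes it was 0.14 with mRNA reads, 0.05 with coding length, 0.06 with the number of footprints, 0.12 with the GC content of the early codons less that of the later codons, and 0.18 with the number of proline codons in the first 50. Genes are not independent replicates, so these values describe the library, and the first and second set this library beside others that differed from it at the genotype genes. Of the 755 genes, 88 have an intron within the first 50 codons, and their median ratio was 0.470, against 0.458 in the others.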

How the data were processed

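The authors extracted ribosomes in the presence of cycloheximide, and per the labels reads were processed with cutadapt 1.16, Bowtie 1.2.2 and TopHat2 2.1.1 against R64. The deposited table of the two-ribosome library holds counts of footprints of 28 to 29 nt per gene and A-site nucleotide, without normalization, and leaves out fragments of other lengths, so the sequencing depth is larger than its sum. The methods state that reads alike in length, sequence and random tag were counted once, but not whether this holds for the deposited table. The tag has 3 nt, too few to tell apart the 1203 footprints at codon 48 of CCW12, even over 2 lengths and 3 frames. Such counts thus appear to include amplification copies, and intervals that take each footprint as separate are then too narrow. The other deposited tables used hold counts per gene for 2 replicates of each assay in rich medium, and 3 tables of cells given 3-AT were not used.

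Coding sequences were read from the R64 reference, in which all 4886 listed genes were found. Ratios were read for genes with at least 50 footprints and 100 codons. A position was called unique when the 28-nt stretch from 15 nt before its A-site occurred once among coding sequences, which was computed from codon 6 on. All ratios and medians per unique position therefore leave out codons 1 to 5 as well. Of the footprints checked, 1.03% lay at positions that were not unique. Shares carry Wilson intervals, ratios Clopper-Pearson intervals and sums Poisson intervals. For genes without an early footprint the limit given is 3 footprints over the gene's total. Python 3.11.15 with numpy 2.4.6, pandas 2.3.3, scipy 1.17.1 and matplotlib 3.10.9 was used, and the ratio and residue functions were tested on simulated data. Genes were named by rule: the 10 highest early counts, the 10 highest and 5 lowest ratios, the 10 highest positions, the ends of each list, genes the study names and the label's genes. The lists and members were chosen with earlier results of these data known.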

Additional observations from a re-analysis of the deposited data

How the results depend on the processing

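With 1 library every value rests on counting alone. The share of footprints in the first 50 codons was 12.8% with each position counted once, 15.1% without the first 5 codons, 6.05% for a window of 30 codons and 36.5% for one of 100 codons. It was 15.3% without genes of under 80% unique stretches, 15.9% without each gene's highest position and 18.3% without the 10 most counted genes. Under the same settings, in this order, the pooled density ratio was 1.27, 1.61, 0.853, 1.85, 1.41, 1.55 and 1.74, and it was 1.40 in genes of at least 200 codons. It is above 1 for 50 codons and below 1 for 30 codons, and 0.730 against each gene's own even spread. The median gene ratio moved to 0.706 with positions counted once, 0.234 for 30 codons, 0.980 for 100 codons and 0.518 without the highest position, and it stayed below 1 in every alternative run. Genes at a ratio of at least 2 numbered 58 with positions counted once, 160 for 100 codons, 209 at a minimum of 20 footprints and 33 at a minimum of 200, and those at 0.5 or less numbered 266, 181, 813 and 131 under the same settings, and 496 for 30 codons. The minimum changes how many genes are read, 1513 at 20 and 258 at 200. The ratio of codons 1 to 10 over codons 41 to 50 was 0.194 in the sum and 0.276 in the gene-scaled profile, and proline in the A-site moved to 1.85 from 2.49 with positions counted once. The rho with translation efficiency ran from 0.0925 to 0.0984 without single replicates and was 0.0887 at 200 footprints. Unique positions, introns and the even spread were chosen after seeing the data, and of these the unique positions left the median of all genes at 0.476 but moved the lists and genes for which the report gives both values. The causes of these shifts were not tested where the setting does not itself give them. No pairing of samples was possible because the library has no replicate, while the ratios of single genes compare codons within the same gene.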
